A study of Mus musculus with 34 samples.

Results

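The W718E line without hormone was set against the line that carries wild-type receptor (WT), both treated with vehicle, to show how the starting state of the W718E cells differed before any ligand was added. Members were the vehicle libraries of those 2 lines, 3 of W718E and 3 of WT, 6 of the 34 libraries of the series. All cells were C127, a mouse mammary adenocarcinoma line, in which the cells' own glucocorticoid receptor had been knocked out and a GFP-tagged mouse glucocorticoid receptor had been introduced. The first group carried the receptor with the substitution W718E, glutamate in place of a tryptophan of the ligand-binding domain, and received vehicle. The second carried the unmutated receptor and received vehicle. Further groups are used beside these: the same lines after dexamethasone (Dex, a synthetic glucocorticoid) at 100 nM for 2 h, W718E and WT with 3 libraries each, and the vehicle libraries of the other mutant lines, P631A and P643A with 3 each and W718S/Y722S with 5. All cultures were moved to charcoal-stripped serum, which is depleted of steroids, for 24 h before treatment. Each receptor is represented by a single line, no clone is named, and separate cultures are not stated for the replicates, and the p-values therefore reflect only how these libraries varied. The substitution and the line that carries it cannot be told apart.

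The glucocorticoid receptor (gene Nr3c1) is a nuclear receptor that waits in the cytoplasm bound to HSP90, its co-chaperones and immunophilins. Cortisol, corticosterone or Dex releases it to the nucleus, where it assembles into dimers and higher multimers on DNA and raises or lowers transcription of genes such as Per1, Fkbp5, Tsc22d3 and Sgk1. Fibroblast-like and epithelial cells also respond to glucocorticoids with changes in matrix, cytokine and growth genes.

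Sequencing depth was alike in the lines. Reads assigned to exons came to between 22.9 and 26.6 M reads (M, mega) in the W718E libraries and between 22.5 and 29.7 M reads in the WT libraries. Ribosomal precursor RNA (Rn45s) took 15.4 to 16.7% of those reads in W718E and 10.6 to 11.3% in WT, while it took 13.8 to 18.3% in the 11 vehicle libraries of the other mutant lines. The part of this share in the differences below was not tested. Marker genes were compared with the labelled cell type. Of 10 mammary epithelial markers, 6 reached a normalised count of 10 on average in W718E and 5 in WT, with a summed count of 791 to 869 in W718E and 553 to 695 in WT. Of 9 fibroblast and mesenchymal markers, 7 reached that level in both lines, with sums of 137138 to 147966 in W718E and 150614 to 153266 in WT. Both lines had little of the epithelial markers, with Epcam averaging 0.366 ± 0.634 in W718E and 0.282 ± 0.488 in WT, and Krt8 averaging 23.0 ± 7.74 in W718E and 33.7 ± 11.4 in WT. Vim, a mesenchymal intermediate filament, was abundant, at 63020 ± 3418 in W718E and 73021 ± 273 in WT (SD, n = 3 each).

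Reads of the receptor gene were present in every library. Nr3c1 had normalised counts of 5437, 5304 and 5220 in W718E and 7264, 7283 and 7395 in WT, so the groups did not overlap. It was lower in W718E by a log2 difference of -0.46 (SE 0.03, adjusted p = 1.15e-09). Reads from the disrupted endogenous gene and from the introduced copy both count as Nr3c1, so this value is not the level of the introduced receptor alone. On a scale shared by the 5 lines, mean Nr3c1 was 5028 in W718E, 5907 in P631A, 5404 in P643A, 6199 in W718S/Y722S and 6909 in WT. WT had the highest mean.

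Without hormone the lines differed at most expressed genes. Of 12374 genes tested, 8900 (71.9%) passed an adjusted p of 0.05, with 4515 (36.5%) higher and 4385 (35.4%) lower in W718E. Of the genes tested, 1243 (10.0%) passed and differed at least 2-fold as well, 645 higher and 598 lower. The counts of gene lists below stand against these shares of all genes. The median size of a difference over all tested genes was 0.331 on the log2 scale, beside a median replicate SD of 0.0589 in W718E and 0.0446 in WT. The near equality of higher and lower counts follows from the scaling, which centres the genes: 50.7% of the called genes were higher, and 30.4% were when the median of a housekeeping list was set to 0, which moved the median of all genes to -0.20. On the main scale 10 of 15 housekeeping genes were higher and 4 lower, among them Gapdh, a glycolytic enzyme, higher by 0.49. With Dex, 8911 of 12383 genes (72.0%) were called between the same lines. Of 8857 genes called in vehicle and tested in both, 8748 had the same sign with Dex and 8019 were called with that sign.

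The vehicle libraries of the other mutant lines place W718E among lines that also carry an altered receptor. Against those 11 libraries, 3899 of 12292 genes (31.7%) were called in W718E, 1999 (16.3%) higher and 1900 (15.5%) lower. Of all genes tested, 107 (0.870%) were called and differed at least 2-fold. The median size of a difference was 0.0935. With W718E set against each mutant line on its own, it was 0.105 for P631A, 0.125 for P643A and 0.139 for W718S/Y722S. By these medians the W718E line lay close to the other mutant lines. For 26 of the 27 named genes with values in all 5 lines, every mutant line lay on the same side of WT. The exception was Cxcl5, with means of 302 in W718E, 34.2 in P631A, 103 in P643A, 73.8 in W718S/Y722S and 46.9 in WT. The named genes were picked for their extreme W718E and WT values, and every line was set against the same WT libraries. The count of 26 therefore supports nothing.

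**Figure D1:**
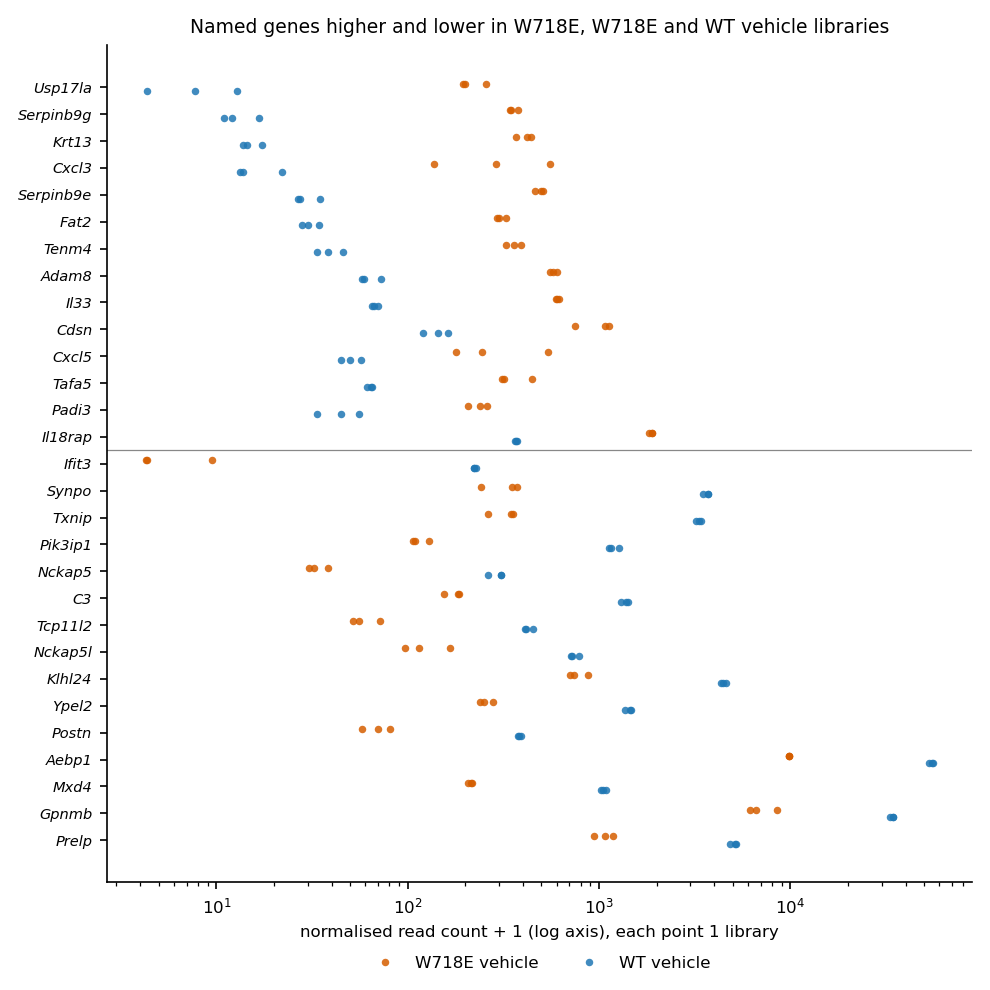
Normalised counts of 14 of the 15 genes with the largest increase and of the 15 with the largest decrease in W718E against WT, 1 point per vehicle library, as count + 1 on a log axis. Genes were ranked among called genes with a mean of at least 200 in the higher group and no overlap of the groups. That the groups are apart for all 29 genes drawn follows from this choice. Cxcl3 has the widest spread among the W718E libraries, from 136 to 551.

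Genes were ranked among those called, with a mean of at least 200 in the higher group and no overlap of the groups. The most raised of them included Usp17la, a deubiquitinase, Serpinb9g, a protease inhibitor, and Krt13, a keratin. Il33, a cytokine of the interleukin-1 family kept in the nucleus, had counts of 620, 602 and 593 in W718E, against 68.5, 63.7 and 65.8 in WT. It was 9.05-fold higher in W718E (adjusted p = 4.9e-14). Adam8, a membrane metalloprotease, had 555, 600 and 574 in W718E, against 71.9, 58.2 and 56.9 in WT, a 9.12-fold difference. Tenm4 and Fat2, a teneurin and a large cadherin at the cell surface, were 9.17-fold and 9.90-fold higher. Il18rap, the accessory chain of the interleukin-18 receptor, had tight replicates with 1870 ± 36.8 in W718E and 367 ± 4.25 in WT (SD, n = 3 each). Tafa5, which codes for a secreted protein, averaged 357 ± 74.6 in W718E and 62.4 ± 1.93 in WT. Usp17la, Serpinb9g and Serpinb9e gave log2 differences of 4.83, 4.77 and 4.06. They have near-identical copies in the mouse genome, so which copy their reads came from is uncertain. Mean Serpinb9e differed widely between the lines, at 462 in W718E, 110 in P631A, 246 in P643A, 6263 in W718S/Y722S and 26.9 in WT. The highest mean was that of W718S/Y722S.

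Under the same rule the most reduced genes were Ifit3, an interferon-induced protein, Synpo, an actin-associated protein, and Txnip, a regulator of glucose uptake. Synpo had 348, 371 and 239 in W718E, against 3509, 3712 and 3716 in WT, and was 11.4-fold higher in WT. Txnip had 343, 352 and 260 in W718E, against 3207, 3425 and 3312 in WT, a 10.4-fold excess in WT. C3, the central complement component, averaged 174 ± 16.5 in W718E and 1364 ± 61.5 in WT. Its mean in the other mutant lines was 106 in P631A, 160 in P643A and 15.2 in W718S/Y722S. Nckap5 and Nckap5l, microtubule-associated paralogs, were lower by log2 differences of -3.12 and -2.60. Mxd4, a MAX-binding repressor that opposes MYC, averaged 211 ± 5.61 in W718E and 1054 ± 34.3 in WT. Prelp, a leucine-rich proteoglycan of the matrix, averaged 1062 ± 123 in W718E and 5051 ± 192 in WT, and its means in P631A, P643A and W718S/Y722S were 815, 257 and 534. All 30 of these genes differed in the same direction with Dex.

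**Figure D2:**
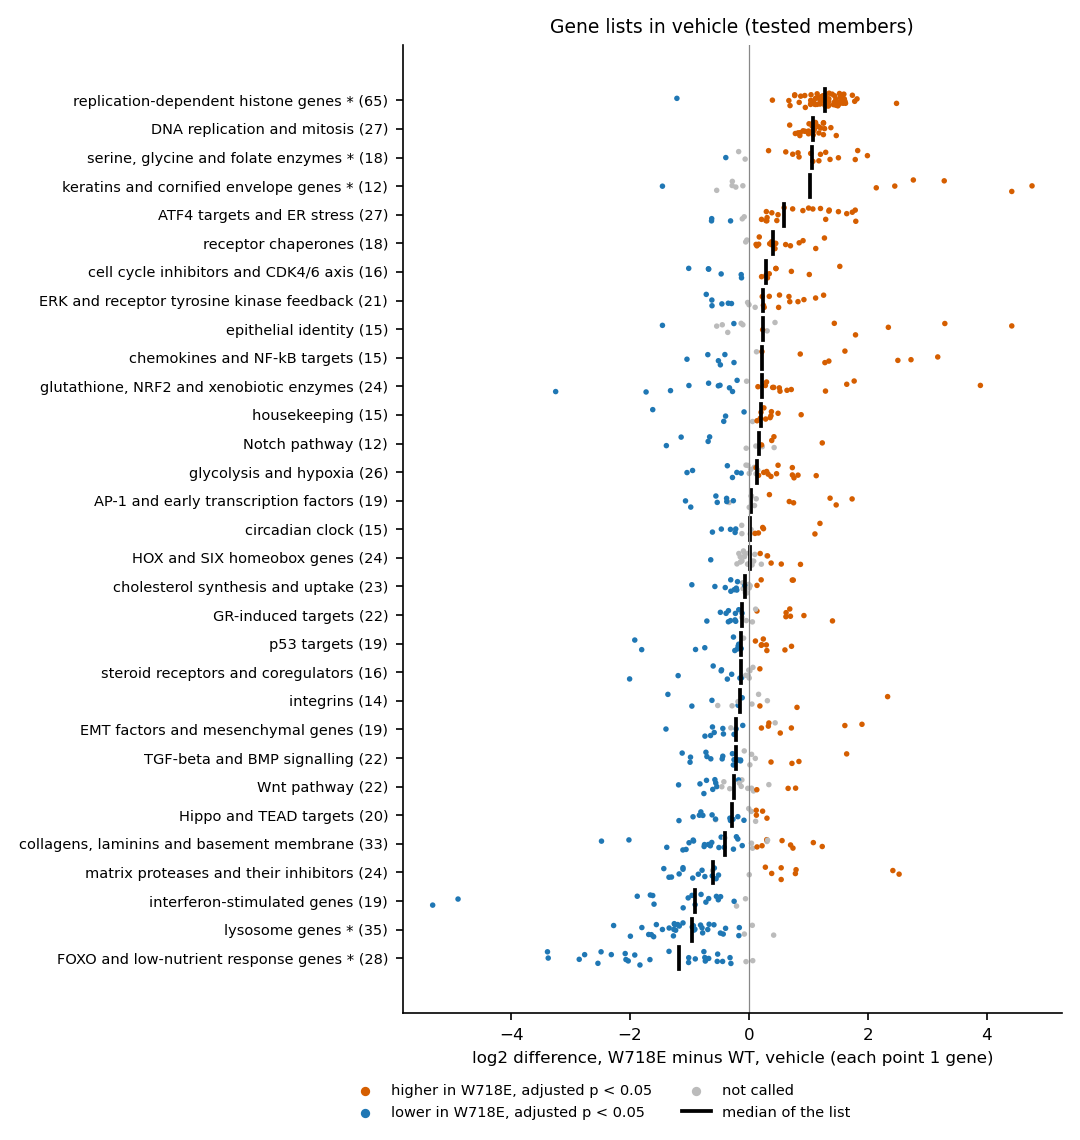
Gene lists ordered by the median log2 difference of W718E minus WT in vehicle, 1 point per tested gene and a bar at the median, with the number of tested genes in brackets and an asterisk on lists added after values were seen. DNA replication, histone and amino acid lists lie to the right of 0, and lysosome, low-nutrient and interferon lists lie to the left.

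Genes of DNA replication and mitosis formed a uniform group. All 27 tested members were higher in W718E, 20 of them at least 2-fold, with a median log2 difference of 1.08, against a median of 0.00 for all genes tested. Mcm5, a subunit of the replicative helicase, had 3452, 3394 and 3232 in W718E, against 1606, 1599 and 1606 in WT. Mki67, the proliferation antigen, had 22049, 22970 and 21004 in W718E, against 11577, 10339 and 11023 in WT. Neither gene's groups overlapped. The members with the largest differences were Ube2c, the ubiquitin-conjugating enzyme of the anaphase-promoting complex, at 1.47, Cenpf and Cenpe, kinetochore proteins, at 1.38 and 1.26, and Birc5 (survivin) at 1.27. Plk1, a kinase that drives mitotic entry, was higher by 1.26. The list's median difference from the other mutant lines was -0.03, with 6 members higher and 8 lower there. Mki67, for instance, averaged 20797 in W718E, 21137 in P631A, 22273 in P643A, 22543 in W718S/Y722S and 10372 in WT.

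Regulators of the G1 to S transition split. Of 16 tested, 10 were higher and 6 were lower in W718E. E2f2 and E2f1, transcription factors that switch on S-phase genes, were higher by 1.53 and 0.72, and Rbl1 (p107), which accumulates in cycling cells, by 1.02. Cdkn1b (p27), a CDK inhibitor abundant in resting cells, had 2542, 2586 and 2540 in W718E and 5150, 5206 and 5106 in WT, a log2 difference of -1.01. Rb1 and Rbl2, the retinoblastoma protein and its p130 relative, were both lower by -0.68, the log2 difference of each. Ccnd1 (cyclin D1) was 1.37-fold higher. Replication-dependent histone genes, a list added after values were seen, showed 64 of 65 tested members higher and 1 lower, Hist2h2be at 47.5 in W718E and 111 in WT. Their median was 1.29, and counts of a list chosen with values known support nothing. Histone genes of these clusters are near-identical in sequence and their messages mostly lack poly(A) tails, and the total RNA kit used here keeps such messages.

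Genes of amino acid stress were also higher. ATF4 is a transcription factor whose translation rises when amino acids are short or the endoplasmic reticulum is stressed, and it binds a composite C/EBP-ATF site. Of 27 tested ATF4 and ER stress genes, 22 were higher, 11 at least 2-fold, and 3 were lower, with a median of 0.59. The promoters of the 4 most raised of the 6 members that hold the motif are shown, since each holds the motif letters TGATGNAA, which are in capitals, searched on both strands from 250 bases before to 50 bases after the RefSeq start. Sequences are from RefSeq (GRCm38.p6), 5′ to 3′ on the gene's strand.
Trib3, chr2:152344011-152344310, minus strand: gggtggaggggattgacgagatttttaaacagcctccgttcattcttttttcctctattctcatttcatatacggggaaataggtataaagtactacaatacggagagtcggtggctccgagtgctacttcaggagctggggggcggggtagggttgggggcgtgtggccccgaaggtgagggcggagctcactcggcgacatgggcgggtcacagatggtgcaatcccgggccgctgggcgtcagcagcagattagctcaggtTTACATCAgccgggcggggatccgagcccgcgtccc
Chac1, chr2:119350992-119351291, plus strand: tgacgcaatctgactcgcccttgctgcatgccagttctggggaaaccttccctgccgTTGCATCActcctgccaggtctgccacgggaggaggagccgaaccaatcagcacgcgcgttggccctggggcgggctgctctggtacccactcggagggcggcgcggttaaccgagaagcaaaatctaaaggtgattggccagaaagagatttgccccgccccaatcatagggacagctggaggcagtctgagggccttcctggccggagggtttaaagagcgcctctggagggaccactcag
Slc7a11, chr3:50443564-50443863, minus strand: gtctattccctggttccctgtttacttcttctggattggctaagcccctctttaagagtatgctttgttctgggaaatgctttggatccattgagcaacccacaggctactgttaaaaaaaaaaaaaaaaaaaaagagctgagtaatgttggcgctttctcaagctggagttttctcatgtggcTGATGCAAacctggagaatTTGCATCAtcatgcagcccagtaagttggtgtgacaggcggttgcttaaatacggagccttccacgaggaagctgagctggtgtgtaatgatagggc
Asns, chr6:7693160-7693459, minus strand: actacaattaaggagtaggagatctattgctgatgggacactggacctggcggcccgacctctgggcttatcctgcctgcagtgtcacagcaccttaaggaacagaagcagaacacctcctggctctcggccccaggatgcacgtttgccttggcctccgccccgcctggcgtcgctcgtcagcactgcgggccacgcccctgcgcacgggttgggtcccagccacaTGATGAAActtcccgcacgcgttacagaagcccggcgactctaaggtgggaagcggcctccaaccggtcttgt

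Of the 26 list members with a RefSeq promoter in the table, 6 (23.1%) held these letters, against 3.97% of all 32851 promoters of that length; a match does not show that a factor binds. Of the 2 whose promoters are not shown, Herpud1, of ER-associated degradation, was higher by 0.21, and Nupr1, a stress-induced chromatin protein, was lower, at 499 ± 87.1 in W718E and 766 ± 97.4 in WT. Trib3, a pseudokinase that feeds back on ATF4, had 4479, 4374 and 4370 in W718E, against 1228, 1290 and 1280 in WT. Chac1, which degrades glutathione, had 2384, 2331 and 2324 in W718E, against 663, 685 and 759 in WT. Slc7a11, the cystine importer, had 791, 783 and 875 in W718E, against 246, 251 and 283 in WT. Asns, asparagine synthetase, had 13612, 13570 and 13374 in W718E, against 5433, 5264 and 5187 in WT. All 4 genes were between 2.55-fold and 3.48-fold higher in W718E with no overlap. The list's median against the other mutant lines was -0.02, and Trib3 averaged 4165 in W718E, 3435 in P631A, 4668 in P643A, 4933 in W718S/Y722S and 1196 in WT.

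Enzymes that make serine and glycine and load folate with single carbons moved with them. Of 18 tested, a list added after values were seen, 15 were higher, 10 at least 2-fold, and 1 was lower. Shmt2, the mitochondrial serine hydroxymethyltransferase, had 11181, 10840 and 11716 in W718E, against 3228, 3278 and 3243 in WT. Aldh1l2, a mitochondrial folate dehydrogenase, and Slc6a9, the glycine transporter, were higher by 1.99 and 1.83. Psph, Mthfd1l and Mthfd2, enzymes of the same route, were higher by 1.51, 1.37 and 1.29. Shmt2 and Psph stand in both lists. The serine and folate list was chosen with values known, so its counts support nothing. Among 26 glycolysis and hypoxia genes 13 were higher and 6 lower, where 36.5% of all genes were higher and 35.4% lower. Pkm, pyruvate kinase, was higher by 1.13 and Ldha, lactate dehydrogenase, by 0.76, while Adm, the peptide adrenomedullin, was lower by a log2 difference of -1.04. The glycolysis median of 0.14 changed sign under housekeeping scaling.

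Of 24 glutathione and xenobiotic genes tested, 13 were higher and 10 lower, where 36.5% of all genes were higher and 35.4% lower. Among the glutathione transferases with the largest differences, the alpha-class Gsta2 and Gsta4 were higher, at 79.6 in W718E against 4.46 in WT, and at 4951 in W718E against 1444 in WT. Among the same, the mu-class Gstm2 and Gstm1 were lower, at 1053 in W718E against 3494 in WT, and at 1630 in W718E against 4060 in WT. Transferases within a class resemble each other in sequence, so their reads may be split between copies.

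A list of FOXO and low-nutrient response genes, added after values were seen, went the opposite way. It had 26 of 28 tested members lower in W718E, 16 at least 2-fold, and none higher, with a median of -1.18. Pik3ip1, Klhl24, Tcp11l2 and Ypel2 of this list were already among the most reduced genes. The list was drawn up with these values known, so its counts describe it and support nothing. Pik3ip1, which restrains PI3-kinase, had 108, 105 and 128 in W718E, against 1129, 1277 and 1156 in WT. Klhl24, a ubiquitin ligase adaptor, had 737, 700 and 877 in W718E, against 4329, 4624 and 4451 in WT. Both were lower in every W718E library than in any WT library. Tcp11l2, Ypel2 and the muscle ubiquitin ligase Fbxo32 (atrogin-1) were lower by log2 differences of -2.85, -2.49 and -2.76. The list's median against the other mutant lines was 0.00, with 4 members higher and 5 lower. Klhl24 averaged 729 in W718E, 808 in P631A, 587 in P643A, 706 in W718S/Y722S and 4220 in WT.

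Most lysosomal genes tested were lower too, where 35.4% of all genes were lower. Of 35 tested members of a list added after values were seen, 32 were lower, 17 at least 2-fold, and none was higher, with a median of -0.95. The list was drawn up with these values known and holds Gpnmb, already among the most reduced genes, so its counts support nothing. Against the other mutant lines 10 members were higher and 5 lower, with a median of 0.07. Ctsd, the aspartic protease cathepsin D, had 10696, 9937 and 11692 in W718E, against 25158, 26133 and 26052 in WT. Gpnmb, a lysosomal glycoprotein, had 6609, 6113 and 8526 in W718E, against 33035, 34506 and 34262 in WT. Ctsd and Gpnmb were 2.39-fold and 4.79-fold higher in WT. Neu1, a sialidase, Grn, progranulin, Ctsa, protective protein, and Tpp1, a peptidase, were lower by log2 differences of -1.99, -1.80, -1.68 and -1.60. Atp6v0d1, a subunit of the proton pump, was lower by -1.64 on that scale.

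**Figure D3:**
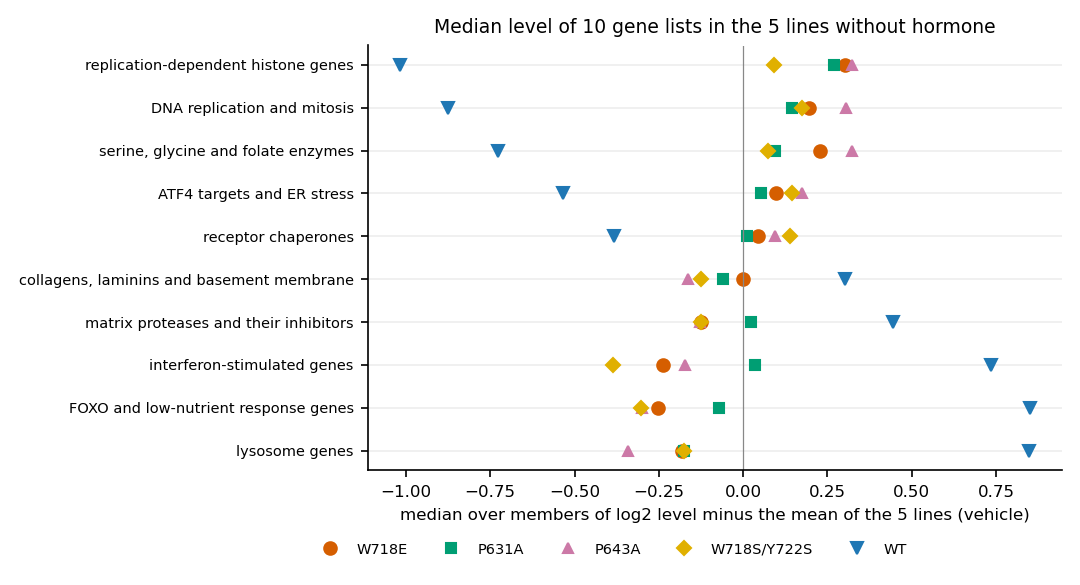
Median log2 level of selected gene lists in each of the 5 vehicle lines, relative to the mean of the lines. WT stands apart from W718E and the other mutant lines in the replication, low-nutrient, lysosome and interferon lists.

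Interferon-stimulated genes were low in W718E. Type I interferon, or the basal activity of its pathway, acts through STAT proteins and IRF9 on a response element in the promoters of these genes. Of 19 tested, 17 were lower, 8 at least 2-fold, and none was higher, with a median of -0.90. The promoters of Ifit3, Ifit1 and B2m are shown because they hold the letters GAAA followed by GAAA after a gap of 2 bases, in capitals, on either strand, over the same window and from the same RefSeq build.
Ifit3, chr19:34583279-34583578, plus strand: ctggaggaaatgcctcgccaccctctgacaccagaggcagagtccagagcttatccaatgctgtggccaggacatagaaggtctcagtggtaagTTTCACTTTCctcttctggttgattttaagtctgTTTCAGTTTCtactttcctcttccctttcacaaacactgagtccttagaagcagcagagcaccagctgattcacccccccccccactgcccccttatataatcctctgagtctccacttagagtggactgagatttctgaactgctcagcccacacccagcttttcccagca
Ifit1, chr19:34640639-34640938, plus strand: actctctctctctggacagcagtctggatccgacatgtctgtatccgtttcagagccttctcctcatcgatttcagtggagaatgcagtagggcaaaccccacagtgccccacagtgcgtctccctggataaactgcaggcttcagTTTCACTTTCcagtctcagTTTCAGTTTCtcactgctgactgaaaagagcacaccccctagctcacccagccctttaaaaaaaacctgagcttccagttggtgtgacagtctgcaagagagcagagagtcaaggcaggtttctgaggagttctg
B2m, chr2:122147437-122147736, plus strand: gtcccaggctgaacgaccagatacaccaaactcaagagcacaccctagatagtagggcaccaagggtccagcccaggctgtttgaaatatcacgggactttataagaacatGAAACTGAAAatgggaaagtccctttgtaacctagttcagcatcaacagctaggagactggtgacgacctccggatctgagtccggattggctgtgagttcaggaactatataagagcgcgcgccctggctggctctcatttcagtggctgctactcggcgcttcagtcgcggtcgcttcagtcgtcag

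Those letters stood in 9 of the 17 list members with a promoter (52.9%), against 3.44% of all promoters. The search also covered motifs for other lists. A forkhead site stood in 3 of 22 low-nutrient promoters (13.6%), against 3.65% of all promoters. The cell cycle homology region stood in 10 of 23 replication and mitosis promoters (43.5%), against 17.89%. The CLEAR E-box, searched for lysosome genes, stood in 0 of 27 of their promoters, against 0.33% of all. Ifit3, which helps block viral RNA, had 3.34, 8.43 and 3.29 in W718E, against 221, 226 and 221 in WT, a 37.1-fold excess in WT. Ifit1, a cap-sensing relative, averaged 6.23 ± 2.73 in W718E and 25.6 ± 9.63 in WT (SD, n = 3 each). B2m, the light chain of MHC class I, had 3703, 3709 and 3602 in W718E, against 11098, 11353 and 11330 in WT. No group overlapped in these 3 genes. Ifit3, its near copy Ifit3b and Ifit1 passed the filter through the WT libraries alone, which adds to the count of lower members. They are also among the 9 members with the motif letters. With any 1 WT library left out, 13 or 14 of 16 tested members were lower and none was higher. Ifit3 shares most of its sequence with Ifit3b, which averaged 0.312 in W718E and 36.3 in WT. Gbp2, an interferon-induced GTPase, and Ifit2 were lower by log2 differences of -1.66 and -1.60. Ifit3 was low in the other mutant lines as well, with means of 4.74 in W718E, 5.69 in P631A, 3.25 in P643A, 2.97 in W718S/Y722S and 210 in WT. Among the other cell types looked for, immune markers had a summed count of 160 to 185 in W718E and 414 to 497 in WT. The macrophage-rich genes Lyz2 and Cd68 averaged 29.4 and 121 in W718E, against 191 and 248 in WT. The T-cell gene Cd3e and the myeloid adaptor Tyrobp averaged under 1 in both lines. Endothelial markers summed to 101 to 132 in W718E and 261 to 298 in WT. Adipocyte markers summed to 89.2 to 115 in W718E and 18.2 to 42.3 in WT, muscle markers to 251 to 299 in W718E and 326 to 415 in WT, with Myod1 at 0 in all, and neuron markers to 36.8 to 71.2 in W718E and 40.0 to 50.2 in WT. Their part in the interferon and lysosome differences was not tested, and fewer cells of a type cannot be told apart from less RNA per cell.

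Matrix genes were mostly lower. Of 33 collagens, laminins and basement membrane genes, 20 were lower, 6 at least 2-fold, and 8 were higher, with a median of -0.40. Over all genes 35.4% were lower and 36.5% higher. Fn1, fibronectin, had 73622, 77313 and 79430 in W718E, against 316591, 287393 and 329639 in WT. Its mean was 72578 in W718E, 98231 in P631A, 69954 in P643A, 30024 in W718S/Y722S and 293979 in WT. Aebp1, a collagen-binding secreted protein, averaged 9846 ± 47.2 in W718E and 54472 ± 1224 in WT. Postn, periostin, averaged 68.5 ± 11.4 in W718E and 383 ± 6.26 in WT. Col4a6 and Col4a5, basement membrane collagen chains, were lower by log2 differences of -1.38 and -1.11. Col12a1, a fibril-associated collagen, was higher by 1.08. Integrins were not mostly lower. Of 14, 3 were higher and 5 lower, and the lower count is near the 35.4% of all genes. Itgb5 was at 3840 in W718E and 9856 in WT.

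Matrix proteases and their inhibitors had 14 of 24 lower and 8 higher, with a median of -0.59, where 35.4% of all genes were lower. Timp2, an inhibitor of matrix metalloproteinases, had 16506, 17081 and 16582 in W718E, against 40396, 42214 and 41046 in WT. Thbs1, thrombospondin, and Adamts4, an aggrecanase, were lower by log2 differences of -1.17 and -1.34.

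Growth factor pathways were counted against the 36.5% of all genes that were higher and the 35.4% that were lower. TGF-beta and BMP genes had 14 of 22 lower and 4 higher, Hippo and TEAD targets 12 of 20 lower and 4 higher, and Wnt genes 9 of 22 lower and 3 higher. Within the TEAD targets, Ccn1 and Ankrd1 were lower by log2 differences of -0.83 and -0.77. Wwtr1 (TAZ), their coactivator, was lower by -0.62 on that scale. Ltbp1, which anchors latent TGF-beta in the matrix, went the other way, at 9972 in W718E and 3184 in WT. Notch genes had 4 of 12 higher and 4 lower, with Rbpj, the DNA-binding partner, higher by 1.24 and Notch1 lower by a log2 difference of -1.14. Genes of EMT had 10 of 19 lower and 7 higher. Snai2, a repressor of epithelial genes, was higher by 1.90, and Acta2, smooth muscle actin, was lower by a log2 difference of -1.39.

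Several keratin and junction genes were high in W718E. Of 15 epithelial identity genes tested, 6 were higher and 2 lower, near the 36.5% of all genes that were higher, and other members of the list were too low to test. Krt14, Cdh3 and Grhl2 passed the filter through the W718E libraries alone, so the counts of this list and of the keratin list below support nothing. Without any 1 W718E library the epithelial list had 3 members higher of 11 or 12 tested. Krt14, a basal keratin, had 159, 156 and 97.7 in W718E, against 5.92, 4.55 and 5.58 in WT. Krt13, a keratin of stratified mucosa, had 442, 421 and 367 in W718E, against 12.7, 16.4 and 13.4 in WT. Cdsn, corneodesmosin of the skin barrier, had 1067, 1119 and 745 in W718E, against 162, 144 and 119 in WT. No W718E library overlapped WT for these genes. Padi3, a peptidylarginine deiminase of hair follicles, was 5.25-fold higher. Cdh3 (P-cadherin) and the transcription factor Grhl2 were higher by 3.30 and 2.35, while Krt7 was lower by a log2 difference of -1.45. Epithelial levels varied among the mutant lines, with Krt14 averaging 130 in W718E, 92.3 in P631A, 301 in P643A, 1570 in W718S/Y722S and 5.05 in WT. Of 12 keratin and cornified envelope genes tested, a list added after values were seen, 6 were higher and 1 was lower.

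Chemokines and NF-kB targets had 8 of 15 higher and 6 lower, where 36.5% of all genes were higher and 35.4% lower. Cxcl3, a neutrophil-attracting chemokine, had 287, 136 and 551 in W718E, against 21.1, 12.7 and 12.3 in WT. Cxcl5, another of this kind, had 243, 178 and 537 in W718E, against 44.0, 49.1 and 55.8 in WT. Ccl7, which attracts monocytes, had 569, 450 and 789 in W718E, against 279, 208 and 241 in WT. In all 3 genes the second W718E library was the lowest of its group and the third the highest, and the lowest still lay above every WT library. Ptgs2 (cyclooxygenase-2) had the same order, with 1756, 1407 and 2371 in W718E, against 617, 546 and 602 in WT. Csf1, the macrophage growth factor, was higher by 1.35. Nfkbia, which holds NF-kB in the cytoplasm, was lower, at 626 ± 47.4 in W718E and 871 ± 32.0 in WT. Ccl2 was not called, with 375 ± 109 in W718E and 335 ± 23.8 in WT.

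AP-1 and early transcription factors had 6 of 19 higher and 7 lower, near the 36.5% and 35.4% of all genes. Fosl1, a FOS relative induced by ERK, was higher, at 1473 in W718E and 442 in WT, and Jund lower, at 2934 in W718E and 5768 in WT. Id1 and Id2, inhibitors of basic helix-loop-helix factors, were higher by 1.37 and 1.47. Of 21 ERK and receptor tyrosine kinase feedback genes, 12 were higher and 6 lower, which became 7 higher and 8 lower under housekeeping scaling, with Etv4, an ETS factor induced by ERK, at 802 in W718E and 334 in WT. Among 19 p53 targets, 8 were higher and 10 lower, and Trp53inp1 was at 550 in W718E and 2085 in WT. Circadian clock genes had 6 of 15 higher and 5 lower, led by Nfil3 at 942 in W718E and 411 in WT. Cholesterol genes had 4 of 23 higher and 10 lower, with Insig1, a sterol sensor, lower by a log2 difference of -0.96. HOX and related homeobox genes, which keep positional identity, had 18 of 24 not called, with 5 higher and 1 lower, against 2 higher and 7 lower under housekeeping scaling and 11 higher and 12 lower with the deposited values. The medians of the AP-1, clock, Notch and homeobox lists changed sign under housekeeping scaling, and that of the cholesterol list under total-count scaling.

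Targets of the receptor were not uniformly low before hormone. Of 22 GR-induced genes, 7 were higher in W718E and 11 lower, with a median of -0.12, where 36.5% of all genes were higher and 35.4% lower. Sgk1, a kinase that regulates sodium transport, had 1408, 1451 and 1378 in W718E, against 927, 915 and 907 in WT. Fkbp5, an immunophilin of the receptor complex, had 2157, 2300 and 1810 in W718E, against 1224, 1317 and 1299 in WT. Ddit4 (REDD1), which restrains mTOR, had 5241, 4567 and 5960 in W718E, against 2045, 1846 and 2024 in WT. All 3 were higher in W718E with no overlap. Errfi1, an inhibitor of the EGF receptor, Slc39a14, a zinc transporter, and Dusp1, a MAP kinase phosphatase, were higher by 0.93, 0.63 and 0.69. The Dusp1 libraries overlapped, with 310, 221 and 624 in W718E, against 238, 208 and 205 in WT. Klf9, a transcription factor and direct target, had 575, 578 and 666 in W718E, against 990, 936 and 1040 in WT. The clock gene Per1 was not called, at 327 ± 12.7 in W718E and 355 ± 27.0 in WT.

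With Dex the order of several targets was turned. Sgk1 averaged 3894 in W718E with Dex and 14391 in WT with Dex, a log2 difference of -1.90, beside 0.62 in vehicle. Fkbp5 differed by -0.61 with Dex, beside 0.70 in vehicle, and Errfi1 by -0.81, beside 0.93. Slc39a14 differed by -0.47 with Dex, beside 0.63. Arrdc2, an arrestin-domain protein, and Spsb1, a ubiquitin ligase adaptor, differed by -2.62 and -2.32 with Dex, beside -0.34 for each in vehicle. Tsc22d3 (GILZ), an anti-inflammatory target, differed by -1.42 with Dex, beside -0.17. Ddit4 was higher in both states, by 1.41 in vehicle and 1.44 with Dex, and Klf9 was lower in both, by -0.71 and -0.56 as log2 differences. Whether the difference in vehicle differed from the difference with Dex was not tested here. Over all genes, 39 were called in opposite directions in the 2 states. On the scale of the 5 lines, vehicle Sgk1 was 1335 in W718E, 1803 in P631A, 2529 in P643A, 2680 in W718S/Y722S and 865 in WT. W718E had the smallest excess over WT among the mutant lines, and its difference from the other mutant lines was -0.79 on the log2 scale (adjusted p = 1.4e-16).

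**Figure D4:**
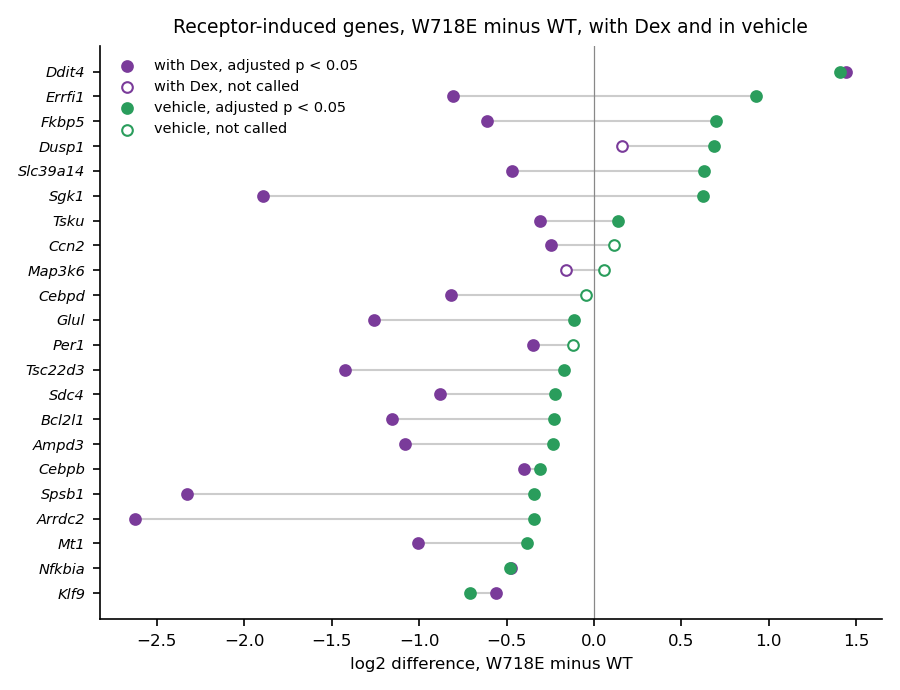
GR-induced genes in W718E and WT, as the log2 difference of W718E minus WT in vehicle and with Dex. Sgk1, Fkbp5, Errfi1 and Slc39a14 lie above 0 in vehicle and below 0 with Dex, while Ddit4 lies above 0 in both.

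Most genes of the machinery that folds the receptor were higher than in WT. Of 18 receptor chaperone genes, 16 were higher, 2 at least 2-fold, and none was lower, with a median of 0.41. Under housekeeping scaling 12 were higher and 3 lower, with a median of 0.21. Against the other mutant lines 2 were higher and 4 lower, with a median of -0.03. Fkbp4 (FKBP52), the immunophilin that aids hormone binding and transport, had 6913, 6795 and 6422 in W718E, against 3544, 3534 and 3613 in WT. Hsp90ab1 had 56934, 55978 and 53350 in W718E, against 40436, 40417 and 41291 in WT. Both sets were apart. The inducible HSP70 genes Hspa1a and Hspa1b, near-identical copies, were higher by 1.27 and 1.13, Hsph1 by 0.85 and the p23 gene Ptges3 by 0.62. Of 16 steroid receptors and coregulators, 1 was higher and 9 lower. Ppargc1a (PGC-1alpha), a coactivator of mitochondrial genes, was at 542 in W718E and 1231 in WT.

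Abundant nuclear RNAs differed in both directions. Malat1, a nuclear speckle RNA, had 361034, 335557 and 442642 in W718E, against 1331470, 1284310 and 1287550 in WT. Neat1, the scaffold of paraspeckles, had 79438, 74956 and 107886 in W718E, against 250560, 190167 and 189255 in WT. Both lay below WT in every W718E library. The catalytic RNAs of RNase MRP and RNase P, Rmrp and Rpph1, were higher, with means of 50167 and 103015 in W718E, against 23947 and 60396 in WT. Rmrp differed by 1.07 in vehicle and 0.46 with Dex, and in vehicle it was 47412 in W718E, 35696 in P631A, 26209 in P643A, 26342 in W718S/Y722S and 22620 in WT. Prl2c2 and Prl2c3, growth-linked prolactin family members with near-identical copies, averaged 29.9 and 22.8 in W718E and had no reads in WT. With no reads in WT, they could pass the filter only through the W718E libraries. The list of prolactin family genes and tryptases, with 3 tested, was highest in W718S/Y722S. Relative to the mean of the lines, its median was 0.07 in W718E and 7.46 in W718S/Y722S. It was -2.40 in P631A, -0.85 in P643A and -3.76 in WT. Against the other mutant lines 2 members were lower in W718E and none was higher, with a median of -1.34.

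A smaller set of genes set W718E apart both from the pooled other mutant lines and from WT. Of the 107 genes at least 2-fold from the other mutant lines, 62 were higher and 45 lower, and 44 also lay at least 2-fold from WT in the same direction, 29 higher and 15 lower. These 44 were 41.1% of the 107 and 3.54% of the genes at least 2-fold from WT, and both comparisons use the same W718E libraries. In the comparison with WT, low genes such as Ntrk3 passed the filter through the W718E libraries alone, which adds to the higher count. Others, such as Actg2, passed through the WT libraries alone, which adds to the lower count. The counts of the 44 therefore support nothing. They need not lie apart from each mutant line, and Krt13 averaged 387 in W718E, 131 in P631A, 82.0 in P643A, 553 in W718S/Y722S and 13.4 in WT. The genes named next were picked from the 44 after values were seen. Cxcl3 averaged 307 in W718E, 24.2 in P631A, 45.4 in P643A, 56.0 in W718S/Y722S and 14.5 in WT. Slc5a3, the myo-inositol transporter, had 13678, 10189 and 22953 in the W718E libraries, with line means of 14766 in W718E, 4433 in P631A, 3731 in P643A, 6017 in W718S/Y722S and 5952 in WT. Tnr, tenascin R, averaged 74.3 in W718E and from 9.59 to 17.9 in the other lines. Cxcl3, Cxcl5, Ccl7, Slc5a3 and Tnr shared an order of replicates, with the second library lowest and the third highest. Others had tighter replicates. Adgrl2 (latrophilin 2), an adhesion receptor, had 512, 504 and 524 in the W718E libraries, with means of 485 in W718E, 280 in P631A, 254 in P643A, 159 in W718S/Y722S and 231 in WT. Ntrk3, the receptor for neurotrophin 3, averaged 35.9 in W718E, 5.48 in P631A, 5.05 in P643A, 9.16 in W718S/Y722S and 4.15 in WT.

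On the low side, Nr1h4 (FXR), the bile acid receptor, averaged 14.4 in W718E, 61.2 in P631A, 45.6 in P643A, 70.6 in W718S/Y722S and 113 in WT. Synpo averaged 302 in W718E, 859 in P631A, 578 in P643A, 475 in W718S/Y722S and 3444 in WT. Dchs2, a protocadherin, averaged 98.3 in W718E, 182 in P631A, 206 in P643A, 292 in W718S/Y722S and 277 in WT. Each was lowest in W718E. Actg2, smooth muscle gamma actin, averaged 3.26 ± 2.01 in W718E and 28.0 ± 1.90 in WT, counts low enough that counting error is large.

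Chromosome 1 stood out among these differences. Against the other mutant lines, 569 of its 724 tested genes (78.6%) were higher in W718E and 14 were lower, where 16.3% of all genes were higher. The median of its genes was 0.35 on the log2 scale, while the medians of the remaining chromosomes lay between -0.03 and 0.01. Chromosome 1 held 5.89% of the tested genes and 28.5% of those called higher. In 20 Mb steps along it, the median stayed between 0.29 and 0.39 against the other mutant lines, while against WT it ran from -0.01 to 0.28. Against WT, 377 of 732 genes (51.5%) were higher and 184 lower, where 36.5% of all genes were higher, and the median was 0.17, against -0.08 to 0.09 for the remaining chromosomes. Each W718E library gave a like value against the WT mean, 0.17, 0.18 and 0.18, and with Dex the median was 0.18. Relative to the mean of the 5 lines, the chromosome 1 median was 0.25 in W718E, -0.10 in P631A, -0.17 in P643A, -0.05 in W718S/Y722S and 0.05 in WT. Mcm6, a helicase subunit on this chromosome, averaged 7793 in W718E, 5477 in P631A, 5968 in P643A, 5466 in W718S/Y722S and 3439 in WT, a log2 difference of 0.47 from the other mutant lines. Mcm5, which is on chromosome 8, was not called in that comparison (0.05, adjusted p = 0.21).

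**Figure D5:**
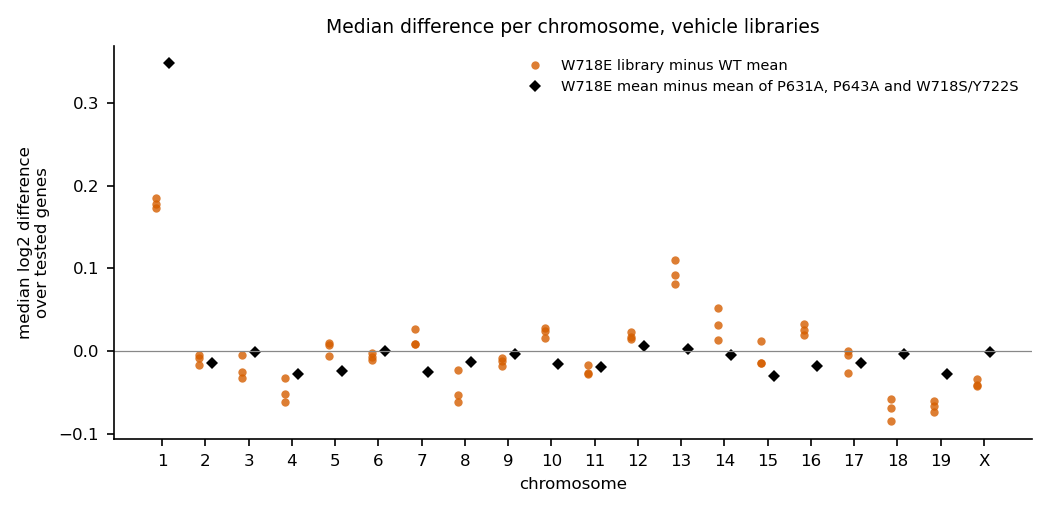
Median log2 difference of the tested genes of each chromosome in vehicle, with 1 round point per W718E library against the WT mean and a diamond for the W718E mean against the other mutant lines. Chromosome 1 lies highest in both, at 0.17 to 0.18 against WT and 0.35 against the other mutant lines.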

How the data were processed

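RNA was sequenced with a stranded total RNA kit, per the labels' protocols. The submitters' processing notes name cutadapt, STAR 2.7.0f, HOMER 4.10.4 and mm10. Per the file headers, reads in exons were counted on 1 transcript per gene with no strand option, so overlapping antisense genes cannot be told apart. The deposited library columns are log2 values, normalised by the authors one table at a time, and they prove to be shrunken toward each gene's mean. Each table was therefore inverted to read counts. Counts simulated with the formula of the inversion, at means under 3000, came back exactly in 100.0% of values. That run cannot show that the formula is the one the authors' processing follows. In the deposited W718E values, 100.0% came out within 0.1 of a whole number at means under 100, and 90.12% at means of 3000 or more. In WT these shares were 100.0% and 45.75%. The shrinkage differs between tables, so the deposited values are not comparable across lines and serve only as an alternative.

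The comparison used the 23472 of 25124 genes counted on the same transcript in both tables, a choice made after the files were seen. Counts were divided by median-of-ratios size factors over the libraries compared. Genes with a normalised count of at least 10 in at least 3 libraries were tested with limma 3.58.1 in R 4.3.3 (lmFit and eBayes with trend) on log2(count + 1), so differences of low genes are understated, and Benjamini-Hochberg adjusted p under 0.05 was called. Each ± is an SD over libraries. In simulated libraries with 12367 genes tested, 33, 46, 49 and 49 of 50 genes changed 1.25, 1.5, 2 and 4-fold were called, and 9 of 12167 unchanged genes. Named genes are the 15 highest and 15 lowest log2 differences among called genes with a mean of at least 200 in the higher group and no overlap, leaving out predicted, RIKEN, microRNA, snoRNA and Rn genes, and the called list members with the largest differences; a few others are shown for their role. The members, lists and rules were chosen with earlier results of these data known. Same-numbered replicates of the lines correlated at -0.033, 0.058 and -0.019, so numbers do not pair them. Replicates differed by more than sampling noise. A few genes that the rule names are not reported here.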

Additional observations from a re-analysis of the deposited data

Results flagged for a closer look

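Gpnmb, the lysosomal glycoprotein given above, had a normalised count of 8004 in library 4 of the W718S/Y722S vehicle group, on the scale of the 5 lines, while the other libraries of that group lay between 7349 and 7521. That library stood apart from its group by its gap over the group's range. Only 27 values were looked at in this way, and chance alone sets about 1 in 20 groups apart.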

How the results depend on the processing

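Line, substitution and culture cannot be told apart, and all values rest on 3 libraries a line. Each of the 30 genes ranked by the naming rule kept its direction and call in all 534 values that could be had. They were chosen as the most extreme differences in these same libraries, so that outcome was nearly fixed and supports nothing. Ifit3 was under the filter with any WT library left out, and Il33, Postn and Txnip were not in the fit of all 5 lines. With the housekeeping median at 0, 2790 genes were higher and 6394 lower in vehicle, 391 at least 2-fold higher and 958 at least 2-fold lower; with Dex 2538 were higher and 6703 lower; against the other mutant lines 1216 were lower. The deposited log2 values gave 4451 higher and 4934 lower against the other mutant lines. The cause of these shifts beyond the change of scale was not tested. Leaving out each library gave 4198 to 4509 genes higher and 4034 to 4382 lower in vehicle. With the replicate block, 4500 were higher and 4358 lower. The chromosome 1 median less that of all genes was 0.170 against WT, 0.164 with a pseudocount of 8, 0.126 with no filter, 0.164 with a filter of 50 and 0.174 to 0.180 with a library left out. Against the other mutant lines it was 0.353, 0.341 with a pseudocount of 8 and 0.324 with no filter. Matching all genes by symbol, an alternative added after the data were seen, gave 4639 higher and 4521 lower.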
